A study of Mus musculus with 13 samples.

Results

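The transcripts described here are 6 genes known as targets of the transcriptional co-activators YAP and TAZ: Ccn1 (also written Cyr61), Ccn2 (also written Ctgf), Ankrd1, Amotl2, Lats2 and Axl. They were found through the 16 probe sets whose platform annotation names only one of them, among 45037 probe sets, and they are 6 of the 18193 genes that the arrays name in this way. Ccn1 had 4 probe sets, Ccn2 had 1, Ankrd1 had 2, Amotl2 had 1, Lats2 had 6 and Axl had 2. One further probe set names Xpo4 beside Lats2 and was not used.

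The RNA came from C2C12 cells, a mouse myoblast line, grown in parallel flasks to 90% confluence in DMEM with 5% fetal bovine serum (FBS). Every flask, that of the 0 h array included, then spent 24 h in DMEM with 0.2% FBS. The cells were then returned to DMEM with FBS, at a percentage that the labels do not state. Times are counted from this return, with the 0 h array at its start. The study, whose title concerns oscillating genes of somite formation, sampled the cells at steps of 30 min. The 13 arrays analysed here cover 0 to 6.0 h, with 1 Affymetrix mouse expression array per time point. By labelled time they form an early window (0.5 to 2.0 h, 4 arrays), a middle window (2.5 to 4.0 h, 4 arrays), a late window (4.5 to 6.0 h, 4 arrays) and the 0 h array.

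The values are the deposited ratios, each probe set being scaled to a reference of its own. They show how a transcript changed and hold nothing about how abundant it was. Levels cannot be compared between genes, and whether C2C12 cells express a myoblast marker cannot be read from them. The median ratio of an array lay between 0.977 and 1.00. The SD of the log2 ratio over probe sets was 0.318 at 0 h, 0.299 at 0.5 h and 0.262 at 1.0 h, and between 0.188 and 0.239 on the other arrays. The number of arrays limits the precision. Differences between windows are log2 differences ± standard error from a limma fit of all 13 arrays, with p-values adjusted over the 18193 genes and a threshold of 0.05. These p-values measure the spread of arrays within a window, which holds technical variation and real change in time together, and not variation between replicates. The 0 h array is single and is assumed to vary like the others, and the comparisons with 0 h share it. In RNA from whole cultures, fewer cells with a transcript and less of it per cell cannot be told apart.

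YAP and TAZ shuttle between cytoplasm and nucleus, where they bind DNA through the TEAD factors and raise the transcription of their targets. The kinases of the Hippo pathway, among them LATS1 and LATS2, phosphorylate YAP and TAZ and hold them in the cytoplasm. Serum lipids that signal through G protein-coupled receptors, mechanical tension and low cell density are known to relieve this block. Some targets act back on the pathway: LATS2 is itself an inhibitory kinase, and AMOTL2 binds YAP and keeps it out of the nucleus.

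TEAD factors recognise the core GGAATG, which reads CATTCC on the other strand. In RefSeq promoter windows of the GRCm38.p6 build (250 bases before to 50 after a start), 14.7% of 32851 windows held this core on either strand. A window was found for 5 of the 6 genes, Ccn2 being the other, and each of these 5 genes had at least 1 core in it, while the second of 2 windows of Lats2 had none. The stretches below show those cores in capitals, 5′ to 3′ on the strand of the gene. They are the 250 bases before the start for Ccn1, Ankrd1 and Amotl2, which rose early by gene value or by single probe sets, and 30 bases around the core for Lats2 and Axl.
Ccn1, chr3:145649986-145650235, minus strand: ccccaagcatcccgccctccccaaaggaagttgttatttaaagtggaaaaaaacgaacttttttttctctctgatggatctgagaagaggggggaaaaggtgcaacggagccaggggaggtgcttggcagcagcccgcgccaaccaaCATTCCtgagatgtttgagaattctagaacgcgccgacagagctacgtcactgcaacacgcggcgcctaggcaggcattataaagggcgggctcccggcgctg
Ankrd1, chr19:36119845-36120094, minus strand: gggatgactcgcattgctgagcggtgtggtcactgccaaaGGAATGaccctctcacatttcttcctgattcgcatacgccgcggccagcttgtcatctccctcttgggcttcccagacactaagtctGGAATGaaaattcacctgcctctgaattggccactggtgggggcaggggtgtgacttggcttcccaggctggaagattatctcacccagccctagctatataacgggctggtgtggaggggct
Amotl2, chr9:102717554-102717803, plus strand: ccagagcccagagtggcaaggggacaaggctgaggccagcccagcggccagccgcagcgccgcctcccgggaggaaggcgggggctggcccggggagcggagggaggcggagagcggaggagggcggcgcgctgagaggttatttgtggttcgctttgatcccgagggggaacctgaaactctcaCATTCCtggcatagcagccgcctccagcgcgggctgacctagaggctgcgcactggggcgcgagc
Lats2, chr14:57746102-57746131, minus strand: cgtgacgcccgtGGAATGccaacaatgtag
Axl, chr7:25788949-25788978, minus strand: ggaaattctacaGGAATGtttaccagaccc

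The core lay on the other strand from base -103 to base -98 in Ccn1 and from -65 to -60 in Amotl2, counted from the start. Ankrd1 had 2 cores on its own strand, from -210 to -205 and from -123 to -118. In Lats2 the core lay just inside the transcript, from base 5 to base 10, and in Axl it lay far up, from -233 to -228. The AP-1 site TGANTCA, searched on both strands, was in none of the 6 windows of these genes, against 7.8% of all windows, and the CArG box bound by SRF was in none, against 1.6%. A match describes the letters of the window, and these data hold no measurement of binding.

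Within 2 h of serum, Ccn2, Ankrd1 and Amotl2 rose, and 3 of the 6 genes were thus called in the early window against 0 h, where 3.26% of all genes were called and 1.46% were called higher. The median difference of the 6 genes was 0.76, and that of all genes was -0.03. Ccn1 and Lats2 had positive differences that missed the threshold as gene values, and Axl stood near 0. In the middle window Ankrd1, Amotl2 and Lats2 fell against the early one (3 of 6, with 22.2% of all genes called and 14.4% called lower). Late against middle, 0 of 6 were called (12.3% of all genes). Axl had an unadjusted p below 0.05 there (adjusted p = 0.162). The share of all genes below that unadjusted p was not counted. Late against 0 h, 2 of 6 were higher, Ccn2 and Ankrd1, with 18.7% of all genes called and 8.8% called higher. A smooth course over time was called for Ccn2, Ankrd1 and Lats2, as it was for 38% of all genes.

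**Figure D1:**
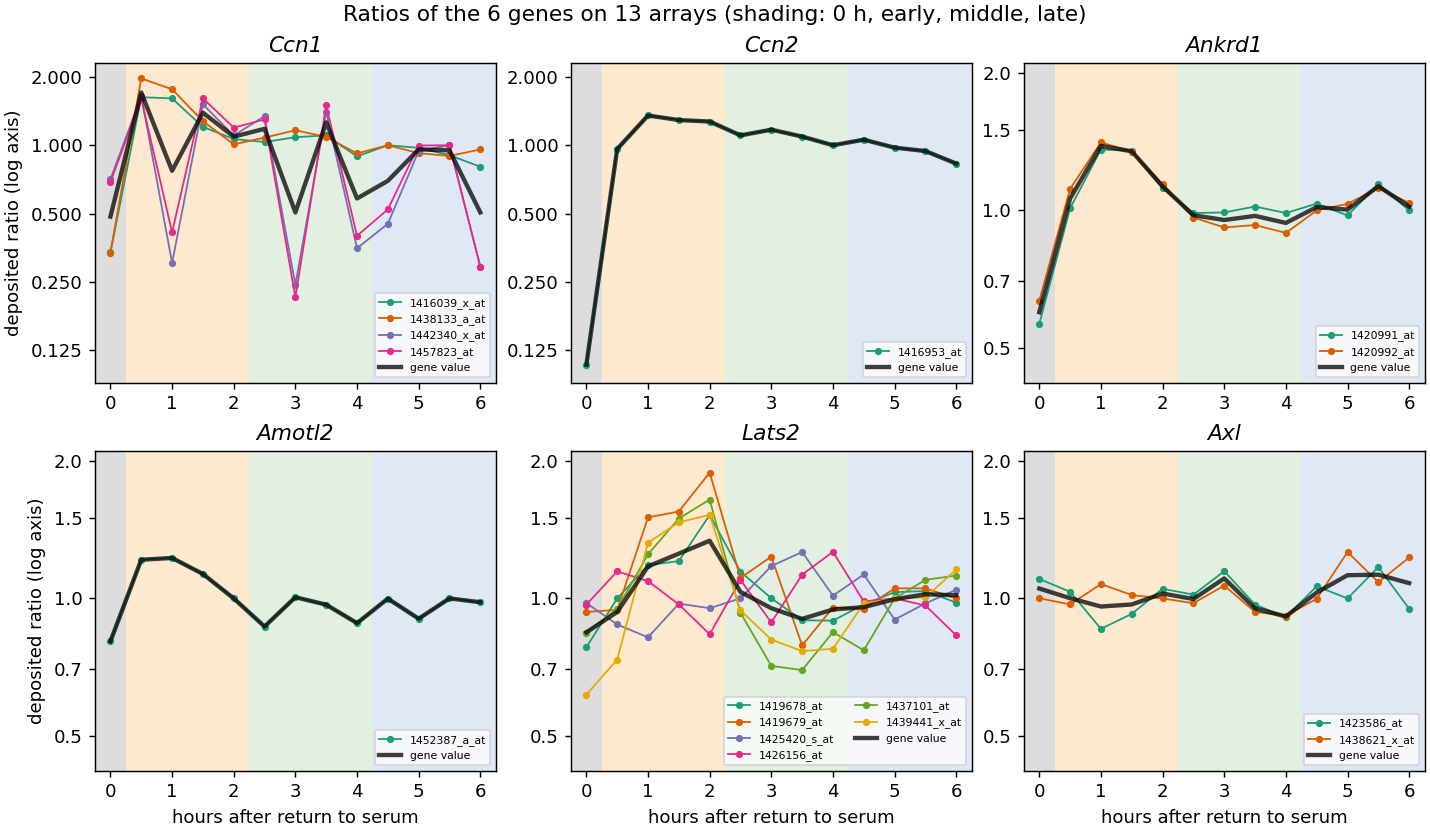
Deposited ratio (log axis, each probe set scaled to its own reference) against hours after the return to serum, for each probe set (coloured lines) and for the gene value, the mean log2 ratio over its probe sets (black line). Shading marks the windows, with grey for 0 h, orange for early, green for middle and blue for late, and the axes of Ccn1 and Ccn2 run wider than the others; Ccn2 stands at 0.108 at 0 h and between 0.830 and 1.35 afterwards, while the gene value of Axl stays between 0.913 and 1.13.

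Ccn2 and Ccn1 encode secreted matricellular proteins of the CCN family, which bind integrins and modulate adhesion and growth factor signalling. Ccn2 stood, in order of time, at 0.963, 1.35, 1.29 and 1.27 on the early arrays, against 0.108 on the 0 h array. It was at 1.11, 1.17, 1.09 and 1.00 on the middle arrays and at 1.06, 0.976, 0.943 and 0.830 on the late arrays. All 12 arrays after the return to serum lay at least 7.69-fold above 0 h, and the windows after serum overlapped each other. The ratio to 0 h was 8.92 at 0.5 h, reached 12.5 at 1.0 h and was 7.69 at 6.0 h.

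The early difference of Ccn2 was 3.48 ± 0.16 (95% interval 3.15 to 3.83, adjusted p = 3.83e-08), the 3rd largest rise among 18193 genes. The late difference against 0 h was 3.13 ± 0.16 (adjusted p = 1.67e-07), the 4th largest. With the arrays quantile-normalized, these differences shrank to 1.70 (adjusted p = 0.000146) and 1.34 (adjusted p = 0.000208), still past the threshold. Between neighbouring windows Ccn2 did not pass: middle minus early was -0.15 ± 0.10 (adjusted p = 0.31) and late minus middle was -0.20 ± 0.10 (adjusted p = 0.213). Without the 0.5 h array, at which Ccn2 was lowest within the early window, the middle window was lower by the test (-0.26, adjusted p = 0.0361).

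Ccn1 was read by 4 probe sets that fell into 2 pairs with different courses, so its gene value averages unlike series. Probe sets 1416039_x_at and 1438133_a_at rose to their highest values at 0.5 h and then declined. 1416039_x_at stood at 1.63, 1.61, 1.20 and 1.07 on the early arrays, against 0.338 at 0 h. 1438133_a_at stood at 1.97, 1.76, 1.28 and 1.01 on the early arrays, against 0.337 at 0 h. On the later arrays both stayed between 0.804 and 1.16, so that every array with serum lay above 0 h.

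Over all 45037 probe sets, of which 3.02% were called, the early difference was 2.00 ± 0.20 for 1416039_x_at (adjusted p = 0.000216) and 2.11 ± 0.25 for 1438133_a_at (adjusted p = 0.000912). Late minus 0 h was 1.44 ± 0.20 (adjusted p = 0.000484) and 1.49 ± 0.25 (adjusted p = 0.00134), where 14.7% of probe sets were called. Middle minus early passed for 1416039_x_at (-0.40 ± 0.13, adjusted p = 0.0382) and not for 1438133_a_at (-0.46 ± 0.16, adjusted p = 0.0532), where 18% were called. The smooth course was called for neither (adjusted p = 0.0539 and 0.133), while 30.7% of all probe sets were called. For second hour minus first hour, 0 of the 6 gene values were called (2.35% of all genes). Amotl2 (adjusted p = 0.39) and Lats2 (adjusted p = 0.16) had an unadjusted p below 0.05, for which the share of all genes was not counted. By single probe sets, the second hour (1.5 and 2.0 h) was lower than the first (0.5 and 1.0 h) by 1438133_a_at, at -0.72 ± 0.13 (adjusted p = 0.00925). 1416039_x_at gave -0.51 with adjusted p = 0.0519. In this comparison 1.41% of all probe sets passed in either direction. At 0.5 h these 2 probe sets stood 4.82-fold and 5.85-fold above 0 h, which is the time of their peak, while Ccn2 had its peak at 1.0 h.

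The other 2 probe sets of Ccn1, 1442340_x_at and 1457823_at, are annotated to one and the same expressed sequence tag and alternated between high and low arrays. 1442340_x_at stood at 1.65, 0.303, 1.51 and 1.10 on the early arrays, at 1.34, 0.243, 1.40 and 0.352 on the middle ones and at 0.451, 0.944, 1.00 and 0.292 on the late ones, against 0.707 at 0 h. 1457823_at was low on the same 5 arrays, 1.0, 3.0, 4.0, 4.5 and 6.0 h, where it lay between 0.214 and 0.522, below its 0 h value of 0.689. On the other 7 arrays after serum it lay between 0.997 and 1.61.

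These 2 probe sets correlated at r = 0.988 with each other over the 13 arrays, and the first pair at r = 0.985. Across the pairs r lay between 0.075 and 0.182. Early minus 0 h was 0.44 ± 0.95 for 1442340_x_at (adjusted p = 0.866) and 0.63 ± 0.92 for 1457823_at (adjusted p = 0.779). The gene value of Ccn1, which averages all 4, gave 1.29 ± 0.49 (95% interval 0.24 to 2.34, adjusted p = 0.156). It was the 52nd largest rise of all genes and missed the threshold in every comparison run.

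**Figure D2:**
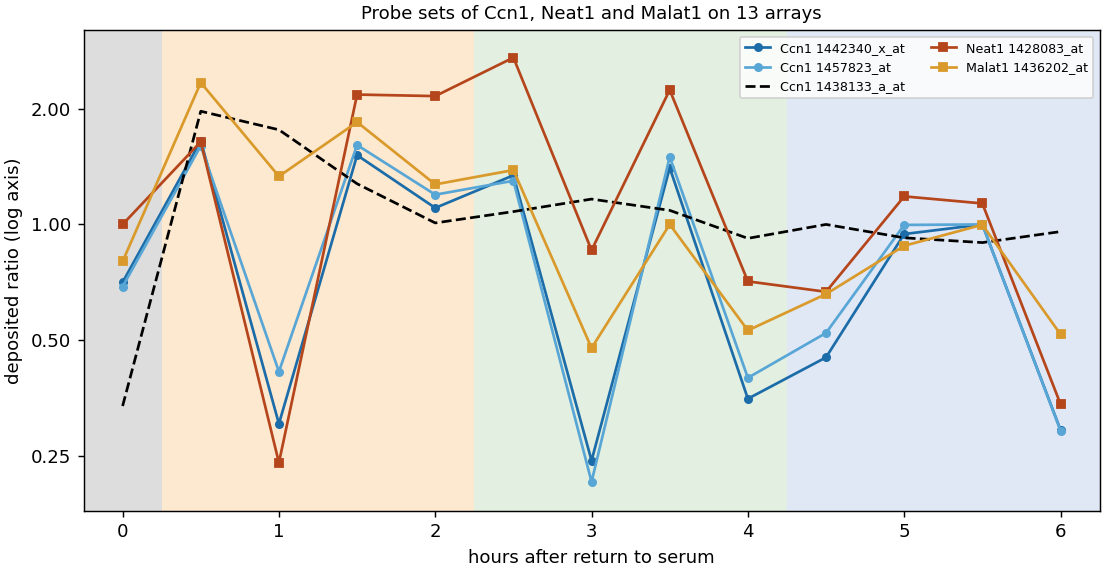
Deposited ratio (log axis) of 3 Ccn1 probe sets and of 1 probe set each of Neat1 and Malat1 against hours after the return to serum. Shading marks the windows. Neat1 and Malat1 were picked after the values were seen and are not the closest to the Ccn1 probe sets drawn in blue. The solid blue Ccn1 lines and the Neat1 line are low together at 1.0 h, 3.0 h, 4.0 h, 4.5 h and 6.0 h, while the dashed line of Ccn1 probe set 1438133_a_at declines from its peak of 1.97 at 0.5 h without these dips.

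Of 45035 other probe sets, 39 correlated at r of at least 0.8 with the mean of that Ccn1 pair, and 10 of these also spanned at least 1 on the log2 scale. They were looked at after the values had been seen. Among them was a probe set of Neat1, a long noncoding RNA retained in the nucleus (1428083_at, r = 0.84). This Neat1 probe set stood at 1.64, 0.240, 2.18 and 2.16 on the early arrays and at 2.72, 0.857, 2.24 and 0.711 on the middle ones, against 1.00 at 0 h. A probe set of Malat1, another nuclear noncoding RNA, had r = 0.79 and was not among the 39 (1436202_at). The second Neat1 probe set had r = 0.36, and the other Malat1 probe sets had r between 0.36 and 0.75. Probe sets of the cytokine signalling inhibitor Socs2 (r = 0.885) and of the histone gene H3f3b (r = 0.838) were also among the 39. What part sample quality or nuclear RNA has in the course of this Ccn1 pair was not tested.

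Ankrd1 encodes an ankyrin repeat protein of the nucleus and the sarcomere that is used widely as a reporter of YAP activity. Its gene value stood at 1.06, 1.38, 1.35 and 1.13 on the early arrays, against 0.599 at 0 h. It was at 0.976, 0.953, 0.973 and 0.939 on the middle arrays and at 1.02, 1.00, 1.13 and 1.02 on the late arrays. No early array overlapped a middle one, and every array with serum lay above 0 h, with the highest at 1.0 h (2.31-fold).

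Ankrd1 rose by 1.03 ± 0.12 in the early window against 0 h (adjusted p = 0.00143, the 71st largest rise). It fell by 0.35 on the log2 scale in the middle window against the early one (standard error 0.08, adjusted p = 0.00666). Late against middle, the difference of 0.12 ± 0.08 did not pass (adjusted p = 0.37), and late against 0 h Ankrd1 stayed higher by 0.80 ± 0.12 (adjusted p = 0.000982). Its 2 probe sets ran together (r = 0.946). The fall in the middle window passed for 1420992_at (-0.43, adjusted p = 0.00209) and not for 1420991_at (-0.27, adjusted p = 0.0514).

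Amotl2 and Lats2 are targets that inhibit YAP. Amotl2, an angiomotin-like scaffold of cell junctions, stood at 1.22, 1.23, 1.13 and 1.00 on the early arrays, against 0.806 at 0 h. The middle arrays were at 0.868, 1.01, 0.969 and 0.883 and the late ones at 0.999, 0.903, 1.00 and 0.981. The early arrays at 0.5 to 1.5 h lay above every later array, and that at 2.0 h lay among them.

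Amotl2 rose by 0.50 ± 0.12 (adjusted p = 0.0335) in the early window against 0 h, with its highest array, at 1.0 h, 1.52-fold above 0 h. Leaving out the 1.0 h array (0.46, adjusted p = 0.0597) or the 1.5 h array (0.50, adjusted p = 0.0603) ended the call. Quantile normalization ended it too (0.41, adjusted p = 0.201). In the middle window it fell by 0.29 on the log2 scale (standard error 0.07, adjusted p = 0.0113). The late window did not differ from 0 h by the test, at 0.27 ± 0.12 (adjusted p = 0.126). Its smooth course missed the threshold (adjusted p = 0.153), and passed without the 0 h array (adjusted p = 0.0199).

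Lats2, the kinase gene, had its highest array later than Ccn1, Ccn2, Ankrd1 and Amotl2. Its gene value stood at 0.934, 1.18, 1.25 and 1.34 on the early arrays, against 0.843 at 0 h. It was at 1.03, 0.952, 0.902 and 0.946 on the middle arrays and at 0.957, 0.996, 1.02 and 1.02 on the late arrays. The highest value, 1.59-fold above 0 h, came at 2.0 h, and the 0.5 h array lay among the middle ones, while the arrays from 1.0 to 2.0 h lay above every later one.

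The smooth course of Lats2 was called (F = 14.6, adjusted p = 0.000489). Early minus 0 h was 0.47 ± 0.14 and missed the threshold (adjusted p = 0.0849), and passed without the 0.5 h array (0.57, adjusted p = 0.00371). Second hour minus first hour was 0.31 ± 0.10 (adjusted p = 0.16), and passed without the 1.0 h array (0.47, adjusted p = 0.016). The fall in the middle window, -0.28 ± 0.09 (adjusted p = 0.0357), was lost without any one of the 1.0, 1.5, 2.0, 3.0, 3.5 and 4.0 h arrays (adjusted p between 0.0666 and 0.0942).

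The 6 probe sets of Lats2 did not run together. 1419678_at, 1419679_at, 1437101_at and 1439441_x_at each had their highest array at 2.0 h, with values of 1.52, 1.88, 1.65 and 1.52. That was 1.95-fold, 2.02-fold, 1.95-fold and 2.47-fold above 0 h. They correlated with each other at r between 0.797 and 0.882, and the smooth course was called for each of the 4, with adjusted p between 2.26e-05 and 0.00284 (30.7% of all probe sets were called).

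1425420_s_at had its highest array at 3.5 h, and its middle window was higher than the early one by 0.29 ± 0.09 (adjusted p = 0.0402), opposite to the gene value; 18% of probe sets were called in this comparison. 1426156_at had its highest array at 4.0 h, and no comparison called it. Against the other 4, these 2 probe sets had r between -0.625 and -0.328. They are included in the gene value and reduce its size.

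Axl encodes a receptor tyrosine kinase whose ligand is Gas6. It stood at 1.00, 0.960, 0.970 and 1.03 on the early arrays, against 1.05 at 0 h, at 0.997, 1.11, 0.951 and 0.913 on the middle arrays and at 1.03, 1.12, 1.13 and 1.08 on the late arrays. Every late array lay just above every early one, while the middle arrays overlapped both and the 0 h array lay within the late range. The whole series spanned 0.30 on the log2 scale. Early minus 0 h was -0.09 ± 0.10 (95% interval -0.30 to 0.12, adjusted p = 0.675), and no comparison called Axl. Its 2 probe sets, which correlated at r = 0.021, were not called either.

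**Figure D3:**
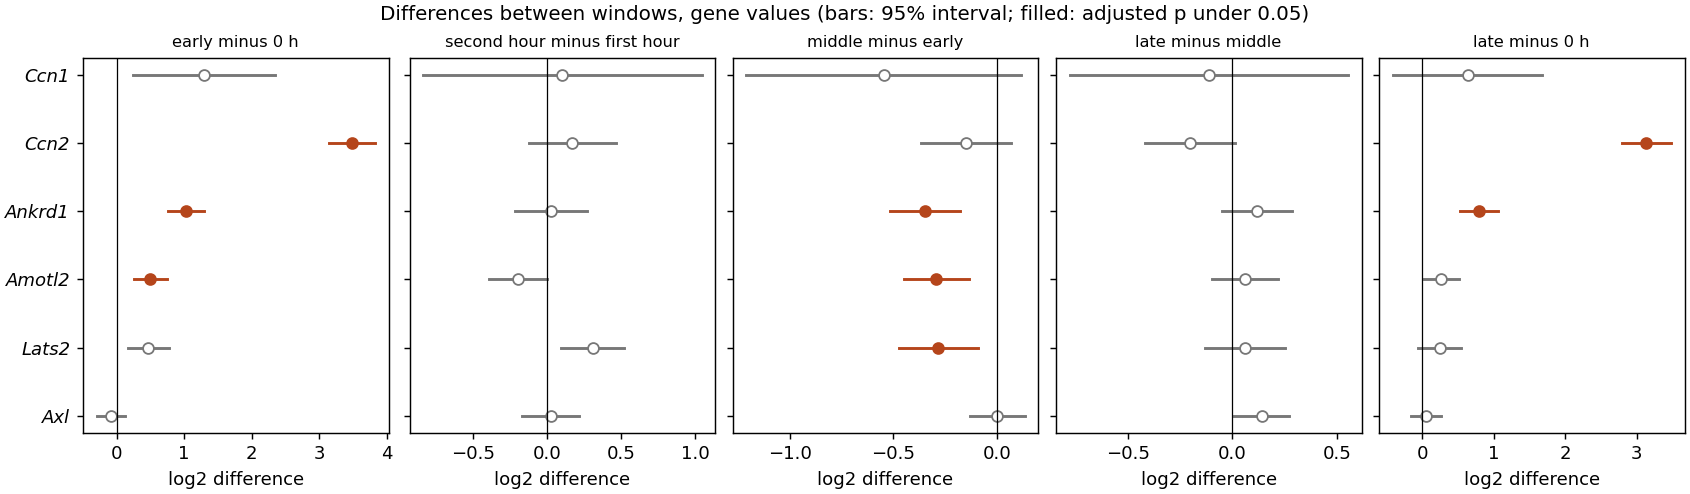
Log2 difference between windows for the gene value of each of the 6 genes, with 95% intervals from the limma fit; filled points had an adjusted p below 0.05, and each panel has its own scale. Ccn2 stands apart at 3.48 for early minus 0 h, and Ankrd1, Amotl2 and Lats2 lie below 0 for middle minus early.

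Across the 13 arrays the gene values of Ankrd1 correlated at r = 0.79 with Amotl2 and at r = 0.75 with Lats2 (rho = 0.76 and 0.75). Ccn2 and Ankrd1 had r = 0.85 and rho = 0.38. Axl had r between -0.27 and -0.13 with the others. All these values share their arrays, and the correlations are given without a test.

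Among 1079 genes whose gene value spanned at least 1 on the log2 scale, the ones most like Ccn2 over the 13 arrays were Sdc4, a cell surface proteoglycan (r = 0.941), Ifrd1 (0.922), Myc (0.908), Ptger4 (0.905) and Ptgs2 (0.901). By rank the likeness was uneven, with rho = 0.67 for Sdc4, 0.879 for Ifrd1, 0.912 for Myc, 0.418 for Ptger4 and 0.918 for Ptgs2. Ankrd1 was most like Myc (0.906), the prostaglandin receptor gene Ptger4 (0.905) and the inhibitory Smad gene Smad7 (0.895). The rho of Ankrd1 was 0.571 with Myc, 0.852 with Ptger4 and 0.681 with Smad7. Amotl2 was most like Ier5 (0.922), F3 (0.885) and Sgk1 (0.879). Lats2 was most like Nab2, a corepressor of Egr factors (0.953), Sirt1 (0.945) and Bcar1 (0.932). The gene value of Ccn1 was most like Malat1 (0.847), Gadd45g (0.817), Gm17501 (0.805), Slc20a1 (0.763) and H3f3b (0.74). That value averages unlike probe sets, so this likeness does not describe the pair that rose and declined. Axl had no gene above r = 0.716, its highest being 9930012K11Rik, followed by Zik1 (0.708) and Zfp799 (0.702).

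Other genes of a published signature of YAP and TAZ targets were read beside these 6. Of 16 measured, 1 rose and 0 fell in the early window against 0 h, beside 3.26% of all genes called and 1.46% called higher. Their median was -0.08, and 6 had an unadjusted p below 0.05, with differences in both directions. The share of all genes below that unadjusted p was not counted, here or for the other lists. The gene that rose was F3, tissue factor, the initiator of coagulation. It stood at 3.14, 3.92, 2.52 and 1.45 on the early arrays, against 0.643 at 0 h, a difference of 2.01 ± 0.35 (adjusted p = 0.00846). Its second hour was lower than its first by 0.88 (log2 difference -0.88 ± 0.21, adjusted p = 0.0418). Nuak2, a kinase gene named after its values were seen, was higher in the second hour than in the first by 1.44 ± 0.29 (adjusted p = 0.0173), with its highest array at 1.5 h. Its early difference of 1.46 ± 0.54 did not pass (adjusted p = 0.146). The smooth course was called for 10 of the 16, F3 and Nuak2 among them, and for 38% of all genes.

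Late against 0 h, 2 of the 16 were higher and 5 were lower, with a median of -0.11; over all genes 8.8% were higher and 9.9% were lower. Crim1, a transmembrane regulator of growth factors, was higher by 0.49 ± 0.16 (adjusted p = 0.0405). The growth arrest gene Gadd45a, at -0.51 ± 0.13 (adjusted p = 0.0143), and Myof, which encodes the membrane repair protein myoferlin, at -0.34 ± 0.08 (adjusted p = 0.012), were lower. These genes were named by their early difference and are not the largest late changes of the list. The others called late were Igfbp3 at -0.76 ± 0.12, Ccdc80 at -0.38 ± 0.08, Arhgef17 at -0.25 ± 0.08 and Dock5 at 0.48 ± 0.10.

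**Figure D4:**
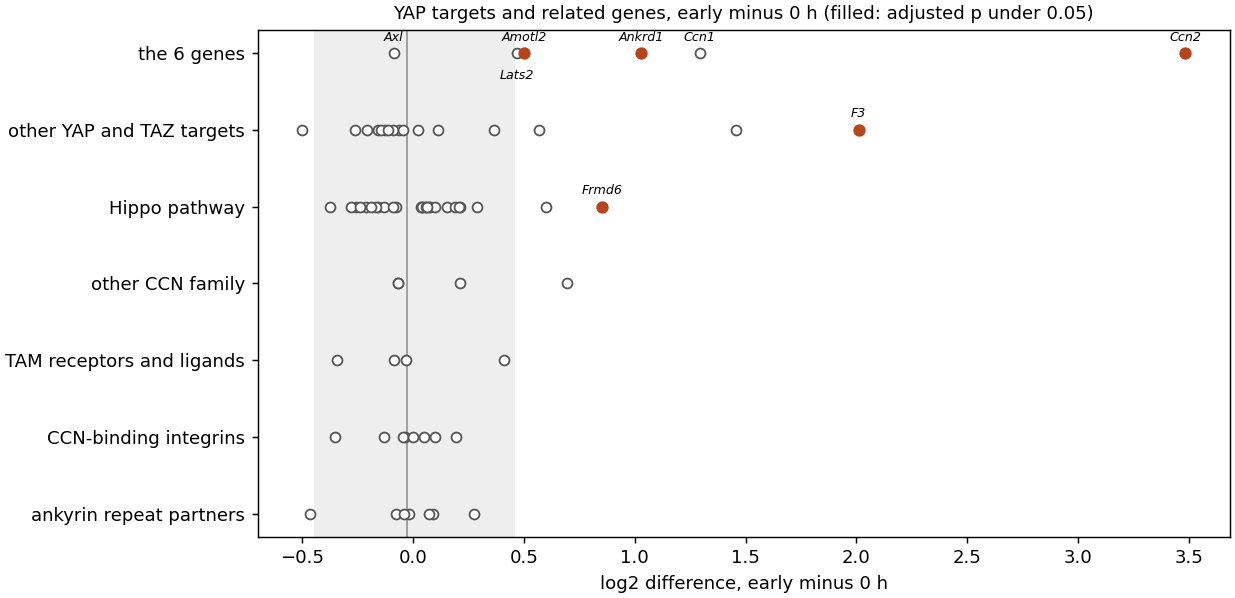
Log2 difference of the early window minus 0 h for each measured gene of 7 lists, with the 6 genes in the top row; filled points had an adjusted p below 0.05. The grey line is the median of all genes (-0.03) and the band holds the central 95% of genes; outside the top row, F3 at 2.01 and Frmd6 at 0.85 were the called genes.

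In the Hippo pathway itself, 1 of 27 measured genes rose in the early window against 0 h and 0 fell, with a median of 0.04. That count is close to the background of 3.26% of all genes called. The gene that rose was Frmd6, which encodes a FERM domain protein upstream of the kinases. It stood at 1.03, 1.41, 1.64 and 1.63 on the early arrays, against 0.777 at 0 h, a difference of 0.85 ± 0.20 (adjusted p = 0.033). Yap1 spanned 0.948 to 1.08 over the whole series, and its early difference was 0.04 ± 0.08 (adjusted p = 0.853). Wwtr1, which encodes TAZ, was at 0.04 ± 0.13 (adjusted p = 0.908). Among the TEAD genes the early differences were 0.07 for Tead1, 0.21 for Tead3 and 0.07 for Tead4, and -0.37 for Tead2, none of them called.

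Middle against early, 1 of the 27 rose and 8 fell, where 22.2% of all genes were called and 14.4% were lower. Of the 27, 0 were higher and 4 were lower late against 0 h, where 18.7% of all genes were called, 8.8% higher and 9.9% lower. Lower late were Amotl1, an angiomotin relative of Amotl2, at -0.68 ± 0.11 (adjusted p = 0.00101), and Tead2 at -0.57 ± 0.15 (adjusted p = 0.015). Nf2, which encodes the upstream regulator merlin, was at -0.46 ± 0.11 (adjusted p = 0.0126), and Amot, named after its values were seen, at -0.52 ± 0.13 (adjusted p = 0.0128). Amotl1 declined over the course, with 1.40, 1.25, 1.19 and 1.15 on the early arrays and 0.980, 0.944, 0.979 and 0.874 on the late ones, against 1.51 at 0 h. Amotl2 had its low value at 0 h and Amotl1 its high one.

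Smaller sets of partners were read beside each member. For counts of called genes the background was 3.26% of all genes early and 18.7% late against 0 h. These shares do not apply to the counts at an unadjusted p below 0.05. None of the 4 other CCN genes was called early or late against 0 h. At an unadjusted p below 0.05 there were 0 late and 1 early, Ccn4, at 0.69 ± 0.30 (adjusted p = 0.218). The smooth course was called for 2 of the 4, as it was for 38% of all genes. These were Ccn4 (F = 29.7, adjusted p = 1.75e-05) and Ccn3 (F = 9.72, adjusted p = 0.00274). Ccn4 had its lowest value, 0.747, at 0 h and its highest, 1.68, at 2.0 h. Of 8 integrin genes whose products bind CCN proteins, 0 were called early (1 at an unadjusted p below 0.05). Late against 0 h, Itgb5 was lower by 0.83 on the log2 scale (-0.83 ± 0.10, adjusted p = 0.000259), and Itga6 was higher by 0.58 ± 0.18 (adjusted p = 0.034).

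Among 4 genes of the Axl family and its ligands, 0 were called early (2 at an unadjusted p below 0.05). Late against 0 h, the receptor gene Mertk was higher by 0.55 ± 0.15 (adjusted p = 0.0245), and the ligand gene Pros1 was lower (-0.42 ± 0.12, adjusted p = 0.0219). Gas6 was at 0.03 ± 0.08 (adjusted p = 0.827). Of 7 partners and relatives of Ankrd1, 0 were called early (2 at an unadjusted p below 0.05). Late against 0 h, its relative Ankrd2 was higher by 0.88 ± 0.21 (adjusted p = 0.0117). Ankrd2 stood between 1.43 and 1.66 on the late arrays, against 0.844 at 0 h, and its early arrays lay between 0.612 and 0.975. The sarcomere gene Mypn was lower late (-0.48 ± 0.12, adjusted p = 0.0158).

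Marker genes of cell states and of other cell types were read beside the early rise, with the same background shares for counts of called genes. Early against 0 h, 0 of 7 myoblast markers were called (-0.37 to 0.26, with 2 at an unadjusted p below 0.05). Of 7 markers of differentiated muscle 0 were called (-0.51 to 0.11, with 2 at an unadjusted p below 0.05). Among 5 fibroblast markers Pdgfra was lower (-0.42 ± 0.10, adjusted p = 0.0361). Of 4 endothelial markers 0 were called (0.11 to 0.26, with 0 at an unadjusted p below 0.05), and of 4 macrophage markers 0 were called (0.04 to 0.44, with 2 at an unadjusted p below 0.05). Late against 0 h, 1 myoblast marker (Cdh15) and 2 fibroblast markers (Pdgfra and Col1a1) were lower, and 1 marker of differentiated muscle (Tnnc2) and 1 macrophage marker (Adgre1) were higher. Of the endothelial markers 0 were called late, and 1 had an unadjusted p below 0.05. Their part in the changes of the 6 genes was not tested.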

How the data were processed

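Biotin-labelled total RNA of C2C12 cells was read on 13 arrays, 1 per time point. The values deposited by the authors are ratios on a linear scale. The submitters' processing notes name RMA without a version, and the step that turned signals into ratios is not given in the labels or files. Probe sets were named from the platform annotation (34945 of 45037 with 1 symbol, 932 with several, 9160 with none), and 64 controls were left out. A gene's value is the mean log2 ratio over the probe sets that name only it. Window means, a fit with the early window split by hour, and a natural spline with 4 degrees of freedom were tested in R 4.3.3 by moderated two-sided tests of limma 3.58.1 with Benjamini-Hochberg adjustment, after the fits were tested on simulated data. Promoter searches used Python 3.11.15 with pandas 2.3.3, correlations used numpy 2.4.6, and figures were drawn with matplotlib 3.10.9. No dim filter was possible. Of each list, up to 4 genes called against 0 h were named, by largest early difference, and the 3 genes most like each member (5 for Ccn1 and Ccn2). Other genes of the lists, the named markers, Neat1, Malat1, Snhg10, Sf3b3, Socs2 and H3f3b were named after their values were seen. The members and lists were chosen with earlier results of these data known. Alternatives were quantile normalization, median centring, a variance trend, 1 probe set or the median per gene (the median was added after the data were seen), other windows and spline flexibilities, and leaving out each array. In the comparisons with 0 h, the 0 h array itself could not be left out. No batch was tested, as no scan date was at hand.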

Additional observations from a re-analysis of the deposited data

Results flagged for a closer look

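In 4-array windows of the 6 genes and their probe sets, 2 values stood far from the other 3 arrays of their window, by Dixon's test at the 95% level; chance marks about 1 in 20 windows, and 22 series in 3 windows each were looked at. The gene value of Ankrd1 was 1.13 at 5.5 h, against 1.00 to 1.02 on the other late arrays. Ankrd1 probe set 1420991_at was at 1.02 at 3.5 h, against 0.987 to 0.99 on the other middle arrays.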

How the results depend on the processing

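With 1 array per time point and a single 0 h array, calls rest on the spread within windows, and signal over background is unknown because ratios hold no level. The comparisons with 0 h cannot be run without the 0 h array, so their dependence on it was not tested. Of 672 values of the 6 genes under an alternative, 638 kept their direction and their side of the threshold. The number of the 6 genes called stayed within 2 to 4 for early minus 0 h, middle minus early and the smooth course, and at 2 for late minus 0 h and 0 for late minus middle. Leaving out 1 array at a time gave 0 to 1 for second hour minus first hour, the 1 being Lats2 without the 1.0 h array. The smooth course of Ankrd1 was lost with 3 degrees of freedom (adjusted p = 0.0742), and that of Amotl2 passed with 5 (adjusted p = 0.0246). The fall of Lats2 in the middle window was lost after quantile normalization (adjusted p = 0.0584), with 1 probe set per gene (0.057) and with an early window of 0.5 to 1.5 h (0.0931). The median over probe sets gave Ccn1 an early difference of 1.30 (adjusted p = 0.141), and 1 probe set per gene gave 0.63 (adjusted p = 0.761).

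Signs turned only for differences that were not called. Leaving out 1 array at a time, Axl middle minus early ran from -0.053 to 0.040, with -0.013, -0.0082 and -0.0027 also below 0. Ccn1 late minus middle ran from -0.34 to 0.097, with 0.065 and 0.077 also above 0. For second hour minus first hour, Ccn2 ran from -0.077 to 0.41, Ankrd1 from -0.17 (-0.10 also below 0) to 0.22, Ccn1 from -0.47 (-0.073 also below 0) to 0.67 and Axl from -0.016 (-0.0066 also below 0) to 0.063. With 1 probe set per gene, late minus 0 h was -0.14 for Ccn1 and -0.081 for Axl. The causes were not tested.

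Over all genes, quantile normalization moved the calls of early minus 0 h to 45 (38 higher, 7 lower), against 594 as reported (265 higher, 329 lower), those of late minus 0 h to 1902, against 3402, and those of second minus first hour to 109, against 427. Leaving out an array gave 298 to 1431 for early minus 0 h, 1105 to 2570 for late minus middle (2240 as reported) and 30 to 702 for second minus first hour. Late minus middle split into 1866 higher and 374 lower, 1382 and 536 after median centring, and 1665 and 747 after quantile normalization. No paired analysis was possible because the labels give no replicate numbers and each time point has 1 array.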
